A study of Mus musculus with 14 samples.

Results

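The gene set described here holds 36 genes of the interferon response and of antigen presentation by MHC class I, measured in regenerating mouse liver. A probe set stood for a gene when the array annotation gave it that gene's symbol and no other, and the set with the highest mean intensity over the 14 arrays was used. By this rule 33 of the 36 genes were found, among 12393 genes on the array; Ddx58, Xaf1 and Ifi44 were not analysed here. Of the 33, 27 were bright enough to be tested and 6 (Socs1, Ifit2, Oasl2, Mx1, Gbp2 and Gbp3) were not. Total liver RNA had been taken from normal mouse liver and 4, 8, 12, 36, 48 and 72 h after partial hepatectomy (PHx), with 2 arrays per group. The design text says that each RNA extraction pooled the livers of 4 to 6 mice. Strain, sex and age are not given in the sources used here, and no sham-operated livers were analysed here, so the operation itself and the loss of liver mass cannot be told apart. The sources do not state whether paired arrays hold different pools of livers, so p-values measure the spread between these arrays, which may be technical.

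Interferons are secreted proteins that act through JAK kinases and STAT transcription factors. Type I interferons bring a complex that holds STAT2 and IRF9 to a DNA element called ISRE, while interferon gamma acts through an element called GAS and induces IRF1. The induced proteins bind viral RNA, trap viruses or coat the vacuoles of microbes, and others raise class I presentation: the immunoproteasome cuts proteins, TAP carries the peptides into the endoplasmic reticulum, and tapasin loads them onto class I heavy chains with beta-2 microglobulin. In liver, hepatocytes as well as Kupffer cells, the resident macrophages, respond to interferons.

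The promoters of 4 genes that fell after PHx are shown because each carries an ISRE match, and 2 of them a GAS match as well. The sequences run from 250 bases before to 50 bases after the gene start and are from RefSeq on build GRCm38.p6. Capitals mark every match to the ISRE core (GAAA and GAAA with any 2 bases between, or TTTC and TTTC on the other strand) or to GAS (TTCNNNGAA, the same on both strands). The regions are chr19:34640639-34640938 (plus strand) for Ifit1, chr19:34583279-34583578 (plus) for Ifit3, chr11:58199306-58199605 (plus) for Igtp and chr8:71537423-71537722 (minus) for Bst2.
Ifit1: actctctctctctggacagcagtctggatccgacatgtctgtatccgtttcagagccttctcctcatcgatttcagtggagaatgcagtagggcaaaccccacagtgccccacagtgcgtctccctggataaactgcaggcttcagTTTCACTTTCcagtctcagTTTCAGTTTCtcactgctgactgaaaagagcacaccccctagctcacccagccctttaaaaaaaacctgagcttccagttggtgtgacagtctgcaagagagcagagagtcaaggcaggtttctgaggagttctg
Ifit3: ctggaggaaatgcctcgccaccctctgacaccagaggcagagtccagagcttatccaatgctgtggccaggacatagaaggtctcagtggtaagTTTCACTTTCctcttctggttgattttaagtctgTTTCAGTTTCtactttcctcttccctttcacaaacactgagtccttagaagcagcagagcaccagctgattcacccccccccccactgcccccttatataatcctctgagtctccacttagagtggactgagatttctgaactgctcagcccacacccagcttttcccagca
Igtp: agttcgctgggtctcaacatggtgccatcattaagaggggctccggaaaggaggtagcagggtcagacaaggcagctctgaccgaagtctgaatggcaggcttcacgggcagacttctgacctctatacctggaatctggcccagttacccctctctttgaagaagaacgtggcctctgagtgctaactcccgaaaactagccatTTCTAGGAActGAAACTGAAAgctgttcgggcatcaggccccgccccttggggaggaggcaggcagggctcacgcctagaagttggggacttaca
Bst2: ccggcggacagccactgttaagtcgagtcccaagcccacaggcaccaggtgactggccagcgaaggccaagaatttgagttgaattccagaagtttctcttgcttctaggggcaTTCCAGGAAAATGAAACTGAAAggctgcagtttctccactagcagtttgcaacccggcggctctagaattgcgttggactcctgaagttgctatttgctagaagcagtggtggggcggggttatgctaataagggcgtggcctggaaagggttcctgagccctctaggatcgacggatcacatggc

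Of the 33 genes, 28 had a promoter in the RefSeq table; Usp18, Mx1, Parp14, Iigp1 and Tap2 had none. Both motifs were searched on both strands, and overlapping matches were counted. The ISRE core was found in 13 of the 28 genes and in 3.99% of all 27025 genes of the table. GAS was found in 9 of the 28 and in 9.55% of all genes. Ifit1 and Ifit3 each held 2 ISRE matches, TTTCACTTTC and TTTCAGTTTC, which began 104 and 85 bases before the start of Ifit1 and 156 and 122 bases before the start of Ifit3. Igtp held GAAACTGAAA 34 bases before its start, next to a GAS match, TTCTAGGAA, at 45 bases. In Bst2 the GAS match TTCCAGGAA overlapped the first of 2 ISRE matches, GAAAATGAAA, which itself overlapped the second, GAAACTGAAA. Ifi47, which fell with Igtp, had neither motif in this window. A match describes letters and not binding.

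The values are array intensities on a linear scale, and each change is a difference in log2(intensity + 57), whose standard error (SE) comes from a limma fit over all 14 arrays. Adjusted p-values are from limma, with Benjamini-Hochberg correction over 13576 probe sets and a threshold of 0.05. Array medians lay between 127.8 and 233.1, and the few arrays limit the precision. Replicate arrays correlated across the probe sets tested at 0.91 to 0.97. There were 4 arrays, replicate 2 at 8, 12, 36 and 72 h, with a ratio of 5′ to 3′ signal of 0.0909 to 0.137 for the pyruvate carboxylase control, where the other 10 arrays had 0.305 to 0.584. The hepatocyte markers Alb, Apoa1, Ttr, Tat and Cyp2e1 were above background on every array, as a liver label requires.

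Most of the tested genes lay below normal liver after PHx, and the lowest median change came at 12 h. A change at some time passed the moderated F test of limma for 6 genes, Ifit3, Bst2, Samhd1, Ifi47, Igtp and Iigp1, or 6 of 27 beside 13.1% of all probe sets. A seventh, Ifit1, passed at single times. At 12 h, 26 of the 27 changes were negative, beside 42.3% of all probe sets. Their median was -0.61 against 0.12 for all probe sets. The 12 h arrays both lay below both normal liver arrays for 18 of 27 genes, beside 22.9% of all probe sets. The same held at 4 h for 12 genes (23.8% of all probe sets) and at 8 h for 13 (25.6%). It held at 36 h for 16 genes (20.2%), at 48 h for 14 (16.3%) and at 72 h for 14 (17.5%). Both arrays lay above normal liver for 2 genes at 4 h (19.4% of all probe sets), 2 at 8 h (29.5%) and 1 at 12 h (29.4%). This was so for 1 gene at 36 h (26.7%), 1 at 48 h (22.9%) and 0 at 72 h (27.1%). The list medians at 4, 8, 36, 48 and 72 h were -0.18, -0.32, -0.45, -0.44 and -0.35, against -0.0025, 0.09, 0.07, 0.12 and 0.11 for all probe sets. All 6 comparisons share the 2 normal liver arrays, so these counts are not independent of each other. At 12 h, 10 of the 27 genes had their lowest change, more than at any other time, and 12 were below normal liver at all 6 times. Neither count was made for all probe sets, so no share stands beside them.

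**Figure D1:**
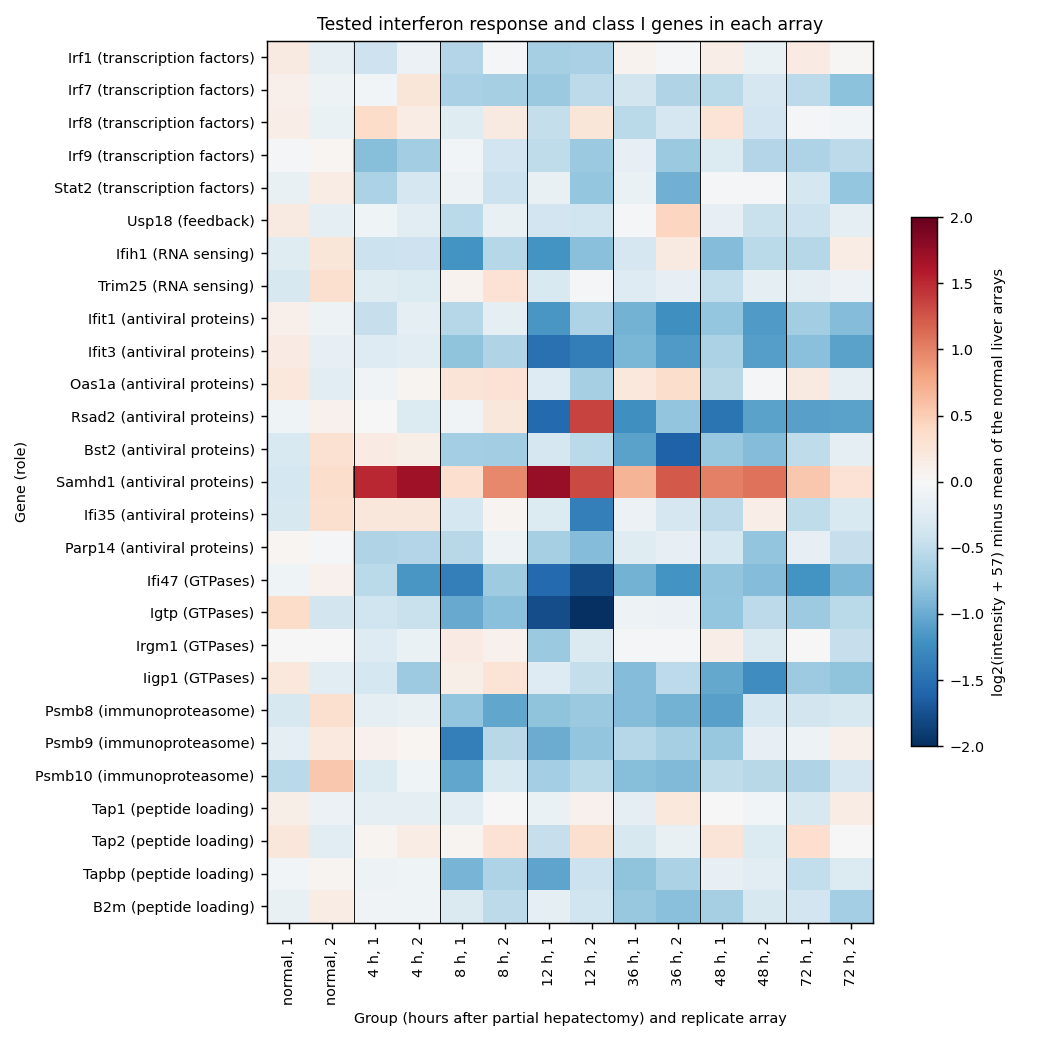
Each row is 1 of the 27 tested genes with its role, and each column 1 array, from normal liver to 72 h after PHx. Colour gives log2(intensity + 57) minus the mean of the 2 normal liver arrays, with blue for lower; Igtp and Ifi47 are at their bluest at 12 h, where their changes were -1.88 and -1.68, and Samhd1 is red at 4 h (1.60) and 12 h (1.54).

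**Figure D2:**
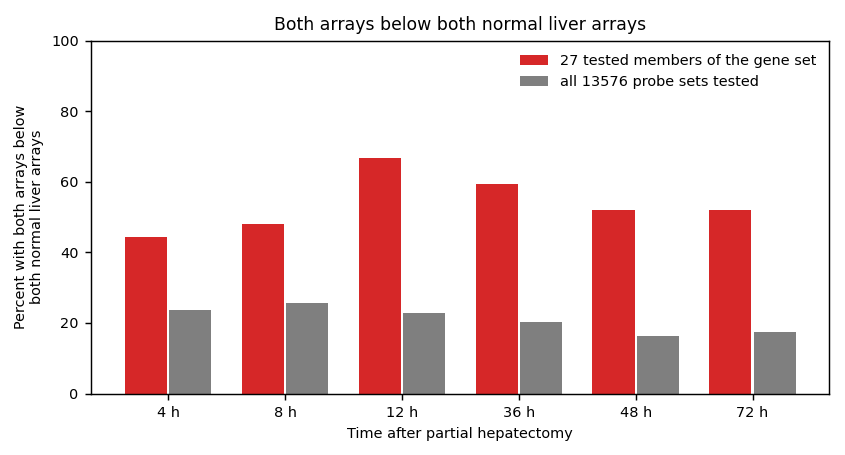
Bars give the percent of genes whose 2 arrays after PHx both lay below both normal liver arrays, by time, for the 27 tested genes (red) and for all 13576 probe sets tested (grey). The 12 h bar of the gene set stands for 18 of 27 genes, beside 22.9% of all probe sets.

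In single comparisons, limma called 1 of 27 genes at 4 h, beside 2.42% of all probe sets: 1 rise (1.6% of all) and 0 falls (0.825%), where 5 of the 27 had an unadjusted p under 0.05 (13.8% of all probe sets). At 8 h it called 2 (9.59% of all), 2 falls (4.72%) and 0 rises (4.87%), with 9 of 27 at an unadjusted p under 0.05 (25.5% of all). At 12 h it called 5 (12.2% of all), 4 falls (6.22%) and 1 rise (5.98%), with 14 of 27 at an unadjusted p under 0.05 (29.4% of all). At 36 h there were 3 calls (4.17% of all), 3 falls (1.89%) and 0 rises (2.28%), with 10 of 27 at an unadjusted p under 0.05 (18.3% of all). At 48 h there was 1 call (2.32% of all), 1 fall (0.685%) and 0 rises (1.64%), with 11 at an unadjusted p under 0.05 (14.1% of all). At 72 h 0 genes passed in limma, beside 2.49% of all probe sets (1.62% rose and 0.869% fell), and 8 of the 27 had an unadjusted p under 0.05 (15.2% of all). Removing the 4 arrays of low 5′ control signal leaves 1 array at each of 8, 12, 36 and 72 h. A call lost there cannot be told apart from the loss of an array. The medians of the 27 genes were then -0.54, -0.66, -0.34 and -0.43 at 8, 12, 36 and 72 h. Without the 4 arrays of low 5′ control signal, 3 of these calls held: Samhd1 at 4 h (1.60, adjusted p = 0.0352) and 12 h (1.75, adjusted p = 0.0422) and Igtp at 12 h (-1.77, adjusted p = 0.0446). Ifit3 and Ifi47 at 12 h then stood at -1.49 (adjusted p = 0.0518) and -1.56 (adjusted p = 0.0517), and the falls of Bst2, Ifit1 and Ifit3 at 36 h at -1.07, -0.95 and -0.91 (adjusted p = 0.298, 0.325 and 0.376). The other calls lost were Ifi47 and Igtp at 8 h (-1.37 and -1.01, adjusted p = 0.0933 and 0.223), Ifit1 at 12 h (-1.17, adjusted p = 0.0872) and Iigp1 at 48 h (-1.13, adjusted p = 0.127).

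The immunity-related GTPases Ifi47 and Igtp, interferon-induced proteins that act at the vacuoles of intracellular microbes, showed the deepest falls. Igtp had intensities of 1739.5 and 1015 in normal liver, 992.4 and 966.6 at 4 h, 630.8 and 722.7 at 8 h, 350.2 and 292.4 at 12 h, 1232 and 1228 at 36 h, 751.1 and 907.2 at 48 h and 785 and 895.8 at 72 h. Both 12 h arrays were under all other arrays, while the 36 h arrays lay between the normal liver arrays. At 12 h the mean was 321 ± 40.9 against 1377 ± 513 in normal liver (SD, n = 2 each), a log2 change of -1.88 (SE 0.25, adjusted p = 0.000941). At 8 h the change was -0.92 (SE 0.25, adjusted p = 0.0406). Ifi47 had 1108 and 1269 in normal liver, 796.9 and 496.4 at 4 h, 424.5 and 702.8 at 8 h, 364.3 and 302.2 at 12 h, 587.8 and 483 at 36 h, 661 and 625.3 at 48 h and 487.1 and 612.5 at 72 h. Every array after PHx lay below both normal liver arrays, and the lowest pair was again at 12 h. The log2 change of Ifi47 was -1.04 (SE 0.28, adjusted p = 0.0369) at 8 h and -1.68 (SE 0.28, adjusted p = 0.00286) at 12 h. It stood at -1.08 at 36 h and -1.04 at 72 h without passing.

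The summed level of 10 Kupffer cell markers was also lower at 12 h, at 7699 and 5268 against 12545 and 14064 in normal liver, and its part in these falls was not tested. The 12 h falls of Ifi47 and Igtp passed without each of the 14 arrays in turn. The 8 h fall of Ifi47 did not pass without replicate 1 or 2 of normal liver (adjusted p = 0.0573 and 0.204), replicate 1 of 8 h (0.255) or either 36 h array (0.0505). The 8 h fall of Igtp passed only without replicate 2 of normal liver or either array of 12 or 48 h, with adjusted p up to 0.193 without another array.

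Iigp1, a GTPase of the same family, followed another course, with 11309 and 8483 in normal liver, 7653 and 5926 at 4 h, 10579 and 11860.5 at 8 h, 8156 and 7030 at 12 h, 5324 and 6784 at 36 h, 4807 and 4088 at 48 h and 5893 and 5581.5 at 72 h. Its 8 h arrays, unlike those of Ifi47 and Igtp, did not lie below normal liver, and its lowest arrays came at 48 h. The 48 h mean was 4447 ± 508 against 9896 ± 1998 in normal liver (SD, n = 2 each), a log2 change of -1.13 (SE 0.24, adjusted p = 0.0281). That call was lost without replicate 1 or 2 of normal liver (adjusted p = 0.0924 and 0.0587), replicate 1 or 2 of 48 h (0.1 and 0.113), and with quantile normalization (0.143). A second Iigp1 probe set changed by -0.73 (SE 0.29, adjusted p = 0.271) at 48 h. Irgm1, a regulatory GTPase, ran from 427.6 to 856.6 over the 12 PHx arrays against 746.5 and 761.8 in normal liver, and passed nowhere.

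**Figure D3:**
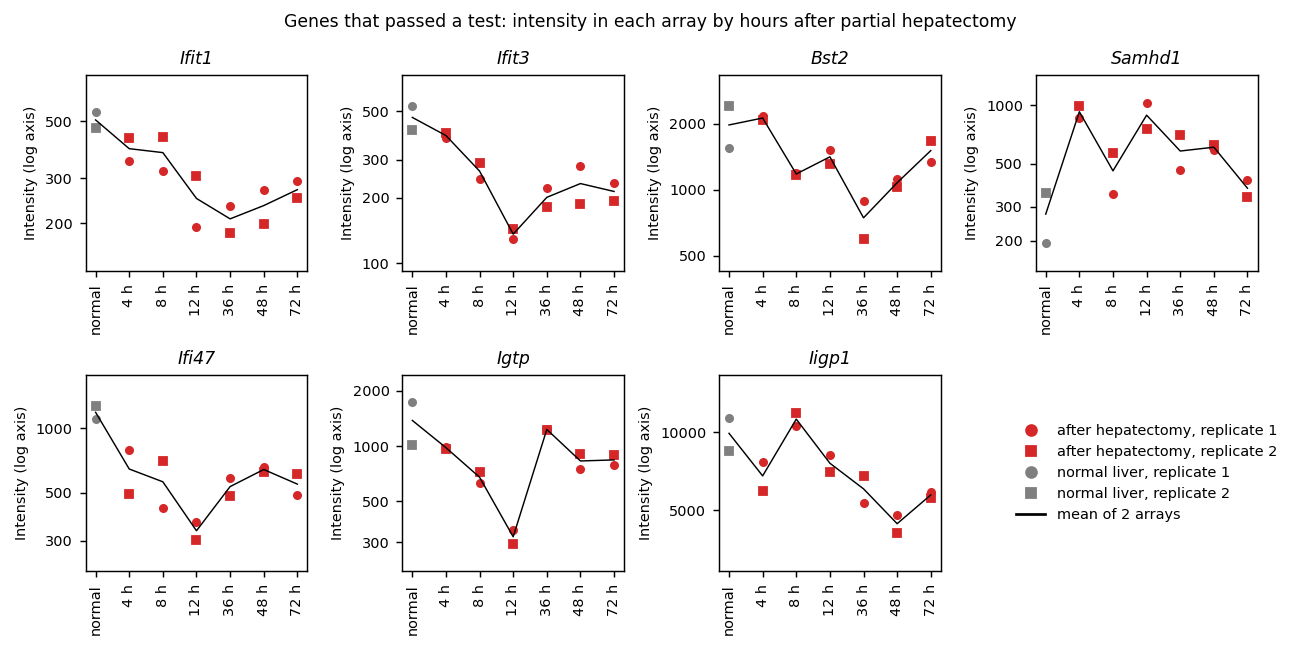
Intensity on a log axis in each array, by group, for the 7 genes that passed a test; circles are replicate 1 and squares replicate 2, red after PHx and grey in normal liver, and the line joins the means of 2 arrays. Ifit3, Ifi47 and Igtp have their lowest pair at 12 h, Bst2 and Ifit1 at 36 h and Iigp1 at 48 h, while Samhd1 is higher after PHx.

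Ifit1 and Ifit3, which bind viral RNA and are among the genes most responsive to type I interferon, fell at 12 and 36 h. Ifit3 had 527.1 and 410.6 in normal liver, 378.1 and 396 at 4 h, 243.3 and 288.3 at 8 h, 129.4 and 143.4 at 12 h, 221.4 and 181.2 at 36 h, 279.1 and 186.7 at 48 h and 235.4 and 193 at 72 h. Every array from 4 h onward lay below both normal liver arrays, and the 12 h arrays were the lowest. The 12 h mean was 136 ± 9.9 against 469 ± 82.4 in normal liver (SD, n = 2 each), a log2 change of -1.44 (SE 0.23, adjusted p = 0.00239). At 36 h the change was -1.02 (SE 0.23, adjusted p = 0.0294), and at 48 and 72 h it was -0.87 and -0.95 without passing.

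Ifit1 had 542.4 and 468.3 in normal liver, 350.7 and 430.5 at 4 h, 321 and 433 at 8 h, 192.9 and 307 at 12 h, 233.6 and 182.7 at 36 h, 270.3 and 198.6 at 48 h and 291.1 and 249.9 at 72 h. No array after PHx reached either normal liver array. The log2 change was -0.90 (SE 0.26, adjusted p = 0.0419) at 12 h and -1.09 (SE 0.26, adjusted p = 0.0355) at 36 h. The 12 h fall of Ifit3 passed without each of the 14 arrays in turn, whereas that of Ifit1 passed only without replicate 2 of 12 h or either 48 h array, with adjusted p up to 0.172 without another. At 36 h Ifit1 passed only without an array of 8, 12 or 48 h (adjusted p up to 0.294 otherwise), and Ifit3 only without an array of 8, 12, 48 or 72 h (up to 0.261).

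Bst2, the membrane protein tetherin that holds budding viruses at the cell surface, had 1554 and 2404 in normal liver, 2165 and 2092.5 at 4 h, 1189.5 and 1172 at 8 h, 1521 and 1309 at 12 h, 892.9 and 595.6 at 36 h, 1120.1 and 1034 at 48 h and 1344 and 1678 at 72 h. The 4 h arrays lay between those of normal liver, and the 36 h arrays were the lowest pair. Its 36 h mean was 744 ± 210 against 1979 ± 601 in normal liver (SD, n = 2 each), a log2 change of -1.34 (SE 0.26, adjusted p = 0.0135). The call was lost without replicate 2 of normal liver (-1.03, adjusted p = 0.135) or replicate 2 of 36 h (-1.07, adjusted p = 0.188). Replicate 2 of 36 h also carried pancreatic transcripts, with a summed level of 34599 over 8 acinar markers against 1058 in the other 36 h array; their part in this fall was not tested.

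Samhd1, an enzyme that breaks down deoxynucleotides and so restricts retroviruses, was the only tested gene of the set to rise over normal liver, by 1 probe set of 4. Its brightest probe set had 196.3 and 353.5 in normal liver, 859.4 and 990.9 at 4 h, 350.5 and 567.7 at 8 h, 1027 and 749.4 at 12 h, 462 and 699.3 at 36 h, 590.9 and 624.2 at 48 h and 411.2 and 336 at 72 h. Both arrays at 4, 12, 36 and 48 h were above both normal liver arrays, and those of 8 and 72 h overlapped them. The log2 change was 1.60 (SE 0.31, adjusted p = 0.018) at 4 h and 1.54 (SE 0.31, adjusted p = 0.00783) at 12 h. This probe set carries the suffix _x_at, which marks probes that can bind related transcripts, and none of the other 3 Samhd1 probe sets passed at any time in limma. One changed by -0.12 (SE 0.23) at 4 h and -0.07 (SE 0.23) at 12 h, another by 0.01 (SE 0.35) and -1.06 (SE 0.35), and the last by 0.65 (SE 0.70) and 1.53 (SE 0.70). The 4 h rise was lost without replicate 1 of normal liver (adjusted p = 0.0835) or replicate 1 or 2 of 4 h (0.1 and 0.167).

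Rsad2, the antiviral enzyme viperin, passed at no time, and its 12 h arrays lay far apart. It had 784 and 893.1 in normal liver, 836.9 and 685.2 at 4 h, 792.5 and 986.7 at 8 h, 248.4 and 2227 at 12 h, 325.6 and 458.5 at 36 h, 267.6 and 368.3 at 48 h and 363.3 and 367.6 at 72 h. Replicate 2 of 12 h was the highest of all arrays and replicate 1 the lowest. The fitted change at 12 h was -0.10 (SE 0.64, adjusted p = 0.934). It became -1.55 without the high array and 1.35 without the low one. The 2 other Rsad2 probe sets also had their highest value in replicate 2 of 12 h, at 683.8 and 1044.8. From 36 h on every array of the brightest Rsad2 probe set lay below normal liver, with changes of -1.01, -1.27 and -1.08 (SE 0.64 each) at 36, 48 and 72 h. These passed when either 12 h array was left out, which takes the spread between the 2 arrays of 12 h out of the SE. Such a fit cannot decide whether these falls hold. The other Rsad2 probe sets changed less at these times, by -0.33, -0.44 and -0.14 (SE 0.33 each) and by -0.42, -0.54 and -0.13 (SE 0.52 each), without passing.

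Other antiviral genes stayed nearer to normal liver. Parp14, an ADP-ribosyltransferase, was at -0.77 (SE 0.24, adjusted p = 0.0561) at 12 h, with 252.6 and 212.7 at 12 h against 447.2 and 422 in normal liver. Its 12 arrays after PHx all lay below both. Oas1a, which makes the messenger 2′-5′ oligoadenylate, ran from 277.8 to 620 after PHx against 560.3 and 399.3 in normal liver. Ifi35 ran from 198.8 to 714.3 against 472.7 and 761.1. Neither passed at any time.

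Of the transcription factors, 0 of 5 passed in limma at any time, beside 2.32% to 12.2% of all probe sets by time. At 12 h, 3 of the 5 had an unadjusted p under 0.05, beside 29.4% of all probe sets. Irf7, which amplifies type I interferon production, had 1014 and 869.9 in normal liver, 901.2 and 1121 at 4 h, 582 and 568.4 at 8 h, 537.6 and 638.4 at 12 h, 712.8 and 601.6 at 36 h, 628.3 and 733.9 at 48 h and 639.1 and 506.8 at 72 h. Its 4 h arrays were at the level of normal liver, and every later array lay below both. The change was -0.66 (SE 0.22, adjusted p = 0.0851) at 8 h and -0.67 (SE 0.22, adjusted p = 0.166) at 72 h. Irf1, the interferon gamma target, had 1186 and 917 in normal liver, 768.1 and 960.4 at 4 h, 678.6 and 1017 at 8 h, 637.6 and 642.6 at 12 h, 1093 and 1019 at 36 h, 1151 and 945.4 at 48 h and 1174 and 1059.9 at 72 h. Its 12 h pair was the lowest, at -0.66 (SE 0.24, adjusted p = 0.0985), and from 36 h on its arrays were near normal liver.

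Irf9, the DNA-binding part of the type I complex, had 298.6 and 315.2 in normal liver, 145 and 168.8 at 4 h, 292.7 and 222.1 at 8 h, 197.6 and 159.9 at 12 h, 267.3 and 161.5 at 36 h, 244.6 and 185.3 at 48 h and 181.4 and 196.9 at 72 h. Its lowest change was -0.77 (SE 0.25, adjusted p = 0.152) at 4 h. Stat2, its partner, ran from 152.2 to 343.1 after PHx against 310.2 and 395.1 in normal liver, with overlap at 8, 12, 36 and 48 h. Irf8, a factor of macrophages and dendritic cells, ran from 144.2 to 317.4 against 261.9 and 209, and its changes lay between -0.44 and 0.25.

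Among the sensors of viral RNA, Ifih1 (MDA5) had 917.7 and 1295 in normal liver, 795.1 and 803.9 at 4 h, 446.9 and 716 at 8 h, 441.8 and 586.6 at 12 h, 849.2 and 1243 at 36 h, 571.4 and 736.5 at 48 h and 717.4 and 1221 at 72 h. The 8 and 12 h arrays were below both normal liver arrays, and replicate 2 of 36 and 72 h was back between them. The change was -0.88 (SE 0.32, adjusted p = 0.108) at 8 h and -1.02 (SE 0.32, adjusted p = 0.0577) at 12 h, short of the threshold. With the 4 arrays of low 5′ control signal as a term in the fit it was -1.16 (adjusted p = 0.0143) and -1.30 (adjusted p = 0.00728). Trim25, a ubiquitin ligase that activates RIG-I, stayed between 1063 and 1867 after PHx against 1207 and 1911 in normal liver. Usp18, the protease that removes ISG15 and damps the type I receptor, ran from 344 to 730.7 against 605.4 and 455.3 and did not pass.

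In class I presentation 0 of 7 genes passed in limma at any time, beside 2.32% to 12.2% of all probe sets by time. An unadjusted p under 0.05 was found for 3 at 8 h (25.5% of all probe sets), 3 at 12 h (29.4%) and 4 at 36 h (18.3%). The median of the 7 was -0.67 at 8 h, -0.61 at 12 h and -0.72 at 36 h. The 5 hepatocyte markers had medians of -0.31, -0.18 and -0.65 at these times, and their summed level at 36 h was 146967 and 146927 against 197094 and 237954.5 in normal liver. At 36 h both arrays lay below normal liver for 5 of the 5 (20.2% of all probe sets). Of these, 0 passed in limma (4.17%) and 3 had an unadjusted p under 0.05 (18.3%). Both arrays also lay below normal liver for 4 of the 5 at 8 h (25.6%) and 1 at 12 h (22.9%). The same held for 3 at 48 h (16.3%) and 5 at 72 h (17.5%). Whether the class I values are tied to those of the hepatocyte markers was not tested. The 3 immunoproteasome subunits, which replace constitutive catalytic subunits under interferon gamma, had their lowest medians at 8, 12 and 36 h. Psmb8 had 466.2 and 750 in normal liver, 508.2 and 526.1 at 4 h, 319.6 and 257.7 at 8 h, 316.2 and 331.7 at 12 h, 298 and 279.1 at 36 h, 248 and 455 at 48 h and 449 and 461.3 at 72 h. From 8 h on each of its arrays lay below both normal liver arrays, and replicate 1 of 48 h was the lowest. Psmb9 had 436.6 and 586.5 in normal liver, 538.5 and 520.2 at 4 h, 161.7 and 325.7 at 8 h, 224.9 and 270.4 at 12 h, 324.2 and 297.1 at 36 h, 276.3 and 443.6 at 48 h and 466.6 and 550.7 at 72 h. Its 4 h arrays lay between those of normal liver, its 8, 12 and 36 h arrays lay below them, and those of 72 h were again between them. The change was -0.92 (SE 0.28, adjusted p = 0.0578) for Psmb8 and -0.96 (SE 0.29, adjusted p = 0.0592) for Psmb9 at 8 h, just outside the threshold.

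Psmb10 had 602.6 and 1332 in normal liver, a spread wider than its distance from most later arrays, and ran from 410.4 to 843.3 after PHx. Its lowest change was -0.87 (SE 0.33, adjusted p = 0.185) at 36 h. Without replicate 1 of normal liver, which leaves only the higher array at 1332, the Psmb10 changes were -1.20, -1.15 and -1.40 at 8, 12 and 36 h. Replicate 1 of normal liver had 602.6. The later arrays had 410.4 and 721.8 at 8 h, 538.7 and 604 at 12 h and 472.3 and 463.3 at 36 h. The constitutive subunits that these replace had changes nearer to 0. Psmb5, the counterpart of Psmb8, stood at 0.27, 0.20 and 0.33 (SE 0.23 each) at 8, 12 and 36 h. Psmb6, the counterpart of Psmb9, stood at -0.16, -0.13 and 0.06, and Psmb7, the counterpart of Psmb10, at 0.10, 0.03 and 0.20 (SE 0.21 each). The difference between the kinds of subunit was not tested.

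**Figure D4:**
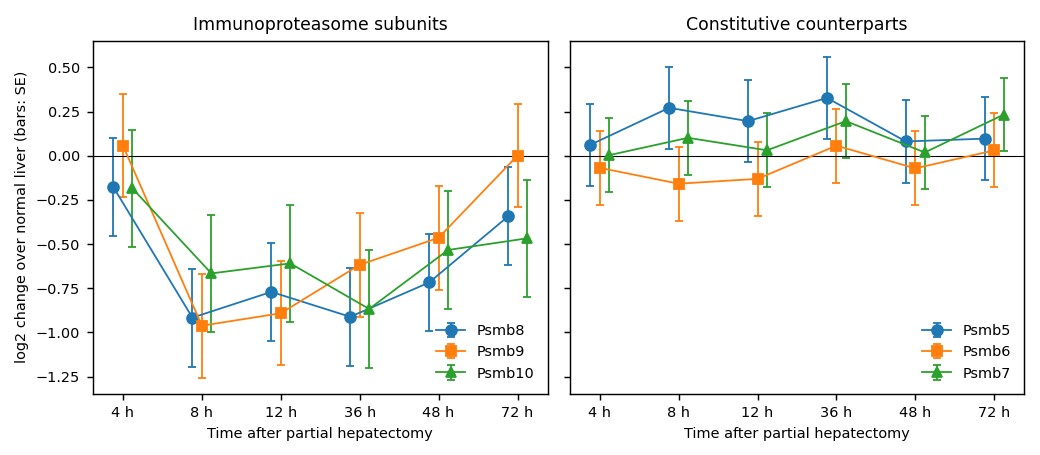
Points give the log2 change over normal liver at each time, with the SE of the fit as bars, for the immunoproteasome subunits (left) and the constitutive subunits they replace (right). Psmb8, Psmb9 and Psmb10 lie below 0 at 8, 12, 36 and 48 h, and Psmb5, Psmb6 and Psmb7 stay within 0.33 of 0.

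Tapbp, the loading factor tapasin, had 1962 and 2142 in normal liver, 1917 and 1938 at 4 h, 1046 and 1321 at 8 h, 955.8 and 1511 at 12 h, 1145 and 1298 at 36 h, 1818 and 1758 at 48 h and 1439.6 and 1691 at 72 h. The pairs at 8, 12 and 36 h were the lowest, and every array after PHx lay below both normal liver arrays. Its change was -0.77 (SE 0.24, adjusted p = 0.0662) at 8 h and -0.74 (SE 0.24, adjusted p = 0.0666) at 12 h. A second Tapbp probe set stood at -0.18 and -0.29. B2m, the light chain of every class I molecule, had 25733 and 31647 in normal liver, 27296 and 26862 at 4 h, 23428.5 and 19744 at 8 h, 24871 and 21651.5 at 12 h, 16905 and 16034 at 36 h, 18016 and 22778 at 48 h and 21857 and 17826 at 72 h. Its 36 h arrays were the lowest, at -0.79 (SE 0.23, adjusted p = 0.0715), and its second probe set stood at -0.53 (SE 0.24, adjusted p = 0.263). The transporter genes Tap1 and Tap2 stayed near normal liver, with changes between -0.18 and 0.02 for Tap1 and between -0.23 and 0.17 for Tap2.

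The other 6 genes were too dim to test. Ifit2 was above the array background (27 bacterial control sets, 95th percentile) on 1 of 14 arrays, Mx1 on 3, Gbp3 on 8, Socs1 on 10, Oasl2 on 11 and Gbp2 on 13. Backgrounds were 43.56 to 138.31. Gbp2 had 89.9 to 204.1 after PHx against 136.1 and 68.1 in normal liver, with both 8 h arrays above normal liver. Oasl2 had 58.6 to 158.8 after PHx against 113.7 and 74.5, with the arrays of 4 and 8 h above normal liver. Socs1, a feedback inhibitor of JAK kinases, was highest at 244.2 in replicate 2 of 4 h and at 238.4 in replicate 2 of 12 h, whose partners had 132 and 25.6, against 99.9 and 59.7 in normal liver.

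Among other genes of the pathway, falls at 12 h were found in some of the interferon-induced genes. Of 38 further interferon-induced genes, 26 were tested, and at 12 h 6 of them fell (6.22% of all probe sets), 0 rose (5.98%) and 20 did not pass, with a median of -0.49. At 12 h 16 of the 26 changes were negative (42.3% of all probe sets). Both 12 h arrays lay below normal liver for 11 (22.9%) and above it for 6 (29.4%). Among these 6 was Dhx58 at 1.19 (SE 0.37, adjusted p = 0.0561). Over the whole course 6 of the 26 passed the F test, beside 13.1% of all probe sets. Gbp6, a guanylate-binding protein, had 382.3 and 415.7 in normal liver, 160.7 and 151 at 4 h, 66.3 and 90.6 at 8 h, 61.6 and 62.6 at 12 h, 92.6 and 77.4 at 36 h, 170.1 and 146.3 at 48 h and 144.9 and 109 at 72 h. All its arrays after PHx, at 170.1 or less, were under both normal liver arrays. It fell at all 6 times, and was at least 4.77-fold lower at 8 h (adjusted p = 0.000403) and at least 3.34-fold lower at 12 h (adjusted p = 0.000257), bounds set by the background because neither array exceeded it. The calls at 8 and 12 h passed without each array in turn. That at 4 h was lost without replicate 2 of normal liver (adjusted p = 0.118) or replicate 1 or 2 of 4 h (0.11 and 0.157), and that at 48 h without replicate 2 of normal liver (0.127) or replicate 1 or 2 of 48 h (0.0691 and 0.0831). Gbp6 at 72 h was lost without replicate 2 of 72 h (0.0794), and without the 4 arrays of low 5′ control signal Gbp6 did not pass at 4, 36, 48 and 72 h (0.0601, 0.0713, 0.0879 and 0.203). Irgm2, a partner of Irgm1, had 558 and 793.4 in normal liver, 219.6 and 173.9 at 4 h, 334.4 and 189.9 at 8 h, 194.3 and 38 at 12 h, 457.1 and 481.1 at 36 h, 472.9 and 313.6 at 48 h and 178.7 and 339.9 at 72 h. Its 12 h change was -2.23 (SE 0.42, adjusted p = 0.00607), with 1 of the 2 arrays above background. It did not pass without replicate 2 of normal liver (adjusted p = 0.062) or without the 4 arrays (0.0608).

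Cxcl9, a T cell attractant made under interferon gamma, had 342.2 and 340.8 in normal liver, 371.3 and 232.7 at 4 h, 244.7 and 265.7 at 8 h, 86.7 and 59.1 at 12 h, 15 and 9.7 at 36 h, 41.3 and 34.4 at 48 h and 82.4 and 91.9 at 72 h. Its 4 h arrays lay on either side of normal liver, its 8 h arrays just below, and all later arrays at 91.9 or less. The fall was at least 2.86-fold at 12 h (adjusted p = 0.00121), at least 6.37-fold at 36 h (adjusted p = 0.00014) and at least 4.12-fold at 48 h (adjusted p = 0.000329). Cxcl10, a related chemokine that NF-kB also induces, had 169.6 and 95.3 in normal liver, 326.8 and 335.1 at 4 h, 168.6 and 281.6 at 8 h, 211.9 and 541.3 at 12 h, 82.5 and 91.1 at 36 h, 170.9 and 124.5 at 48 h and 129.8 and 149.9 at 72 h. Both arrays of 4 and 12 h lay above normal liver and both of 36 h below, but no time passed (adjusted p = 0.0586 at 12 h). At 12 h Rtp4, a chaperone induced by interferon, changed by -1.51 (SE 0.25, adjusted p = 0.00291). Parp12, an antiviral ADP-ribosyltransferase, was at -1.45 (SE 0.32, adjusted p = 0.0125) and Pml, the scaffold of nuclear bodies, at -1.49 (SE 0.35, adjusted p = 0.0174), each with 1 of 2 arrays above background. Neither passed without replicate 2 of normal liver (adjusted p = 0.11 for Parp12 and 0.147 for Pml) or replicate 2 of 12 h (-0.97 and -0.89, adjusted p = 0.0779 and 0.108). Without the 4 arrays of low 5′ control signal Parp12, Pml and Cxcl9 did not pass at 12 h (adjusted p = 0.197, 0.205 and 0.0535).

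Of 18 signalling genes 16 were tested, and at 12 h 3 rose (5.98% of all probe sets), 1 fell (6.22%) and 12 did not pass. Socs3, a feedback inhibitor that IL-6 induces through STAT3, had 247.6 and 205.5 in normal liver, 3383 and 3074 at 4 h, 2531 and 2805 at 8 h, 1918 and 4029 at 12 h, 947.2 and 630 at 36 h, 473.8 and 670.8 at 48 h and 308 and 390.5 at 72 h. It rose by 3.54 (SE 0.33, adjusted p = 0.000218) at 4 h and by 3.33 (SE 0.33, adjusted p = 0.00014) at 12 h. Stat3 itself rose by 1.46 (SE 0.31, adjusted p = 0.0115) at 12 h, and Ptpn2, a phosphatase that dampens JAK signalling, by 2.18 (SE 0.54, adjusted p = 0.0217), with 753.7 and 3358.5 in its 12 h arrays against 420.3 and 226.3 in normal liver. Mavs, the adaptor of the viral RNA sensors, changed by -1.02 (SE 0.28, adjusted p = 0.0346) at 12 h. Without replicate 2 of 12 h, Stat3 stood at 1.03 (adjusted p = 0.0741) and Ptpn2 at 1.14 (adjusted p = 0.131), and Ptpn2 also did not pass without replicate 2 of normal liver (adjusted p = 0.174). Mavs did not pass without replicate 2 of normal liver (-0.70, adjusted p = 0.268) or replicate 1 or 2 of 12 h (adjusted p = 0.098 and 0.0803), and without the 4 arrays of low 5′ control signal none of Stat3, Ptpn2 and Mavs passed (adjusted p = 0.157, 0.144 and 0.187). None of the receptor genes Ifnar1, Ifnar2, Ifngr1 and Ifngr2 passed at any time in limma, and their changes lay between -0.40 (Ifnar2 at 72 h) and 1.09 (Ifngr1 at 12 h).

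Of 13 further class I genes 10 were tested. In limma 0 passed against normal liver at any time, beside 2.32% to 12.2% of all probe sets by time. At each time 0 to 2 had an unadjusted p under 0.05, beside 13.8% to 29.4% of all probe sets. H2-K1, a class I heavy chain whose probe set can bind other heavy chains, had 23619 and 34493 in normal liver, 27837 and 36267 at 4 h, 25949 and 20801 at 8 h, 24402 and 22794 at 12 h, 16720.5 and 17138 at 36 h, 13869 and 21829 at 48 h and 18981 and 14921 at 72 h. Its 36 h change was -0.75 (SE 0.28, adjusted p = 0.175), and all arrays from 36 h on lay below both normal liver arrays. H2-D1, another class I heavy chain, had 10850 and 12377 in normal liver. Its 4 h arrays, at 13877 and 19597, both lay above normal liver, with a change of 0.51 (SE 0.27, adjusted p = 0.454). At 8 h it had 12688 and 9294.5 and at 12 h 11580 and 14099. At 36 h it had 11720 and 11115, at 48 h 8456 and 10153 and at 72 h 11576 and 7702.

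Levels were then compared between the late times (36, 48 and 72 h, 6 arrays) and the early times (4, 8 and 12 h, 6 arrays), a contrast that uses no normal liver array. In limma 3 of 27 genes passed (15.9% of all probe sets): 1 rose (9.92%) and 2 fell (5.96%), and 24 did not pass. Igtp was higher late, at 966.6 ± 213 against 659.2 ± 297 early (SD, n = 6 each), a change of 0.61 (SE 0.15, adjusted p = 0.0144). Iigp1 was lower late, at 5413 ± 924 against 8534 ± 2250 early (SD, n = 6 each), a change of -0.63 (SE 0.14, adjusted p = 0.00884), and its second probe set fell by 0.67 (SE 0.17, adjusted p = 0.0166). With quantile normalization Iigp1 did not pass (-0.47, adjusted p = 0.0654). Bst2 was lower late, at 1111 ± 373 against 1575 ± 447 early (SD, n = 6 each), a change of -0.50 (SE 0.15, adjusted p = 0.0404). The late and early arrays overlapped for each of the 27 genes, while all late arrays lay below all early ones for 2.21% of all probe sets and above them for 4.76%. The calls of Igtp and Iigp1 passed without each of the 14 arrays in turn. That of Bst2 passed only without replicate 1 or 2 of normal liver, replicate 2 of 12 h or replicate 1 of 36 h, with adjusted p up to 0.119 otherwise. The brightest Rsad2 probe set stood at -1.07 (SE 0.37, adjusted p = 0.0701) and did not pass. Its change was -1.55 without replicate 1 of 12 h and -0.58 without replicate 2 of 12 h. Another Rsad2 probe set passed at -0.60 (SE 0.19, adjusted p = 0.0472), and the last did not, at -0.57 (SE 0.30, adjusted p = 0.239). Without the 4 arrays of low 5′ control signal none of the 3 passed (adjusted p = 0.214 for Igtp, 0.105 for Iigp1 and 0.234 for Bst2).

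Some markers of Kupffer cells fell at 8 and 12 h. In bulk liver, fewer cells of a type and less RNA per cell cannot be told apart. The summed intensity of 10 Kupffer cell and macrophage markers was 8365 and 9391 at 8 h and 7699 and 5268 at 12 h, against 12545 and 14064 in normal liver, and from 36 h on it was 11133 to 12864. At 8 h 2 of the 10 fell in limma (4.72% of all probe sets). Both 8 h arrays lay below normal liver for 7 of the 10 (25.6%) and above it for 3 (29.5%). At 12 h 4 of the 10 fell (6.22%) and 0 rose (5.98%). Both 12 h arrays lay below normal liver for 8 of the 10 (22.9%) and above it for 0 (29.4%). At 36 h 1 of the 10 rose (2.28%) and 0 fell (1.89%). Among the 4 at 12 h, Csf1r, the receptor of a macrophage growth factor, changed by -1.19 (SE 0.21, adjusted p = 0.00384) and Clec4f, a Kupffer cell lectin, by -1.44 (SE 0.25, adjusted p = 0.00342). The endothelial sum was 4558 and 3965 at 12 h against 5043 and 5899 in normal liver. In limma 1 of 8 endothelial markers rose at 12 h (5.98% of all probe sets) and 0 fell (6.22%). Both 12 h arrays lay below normal liver for 4 of the 8 (22.9%) and above it for 2 (29.4%). Of 11 T and NK cell markers, 7 were above background in 7 or fewer of the 14 arrays. The part of these cells in the falls of the interferon genes was not tested.

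RNA of other tissues was present on some arrays. The sum of 8 acinar markers of the pancreas was 30860 and 30875 at 4 h, 215930 and 199644 at 8 h and 3703 and 1828 at 12 h, against 1956 and 978.4 in normal liver. That of 10 skeletal muscle markers was 17829 and 15592 at 4 h and 10739 and 9944 at 8 h, against 550.7 and 278.1 in normal liver. The muscle sum was 2104 and 1556 at 12 h and 526.6 and 2723 at 36 h. Both 12 h arrays lay above normal liver for 10 of the 10 muscle markers (29.4% of all probe sets), and 1 rose in limma (5.98%). The part of this RNA in the values at 4, 8, 12 and 36 h was not tested.

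**Figure D5:**
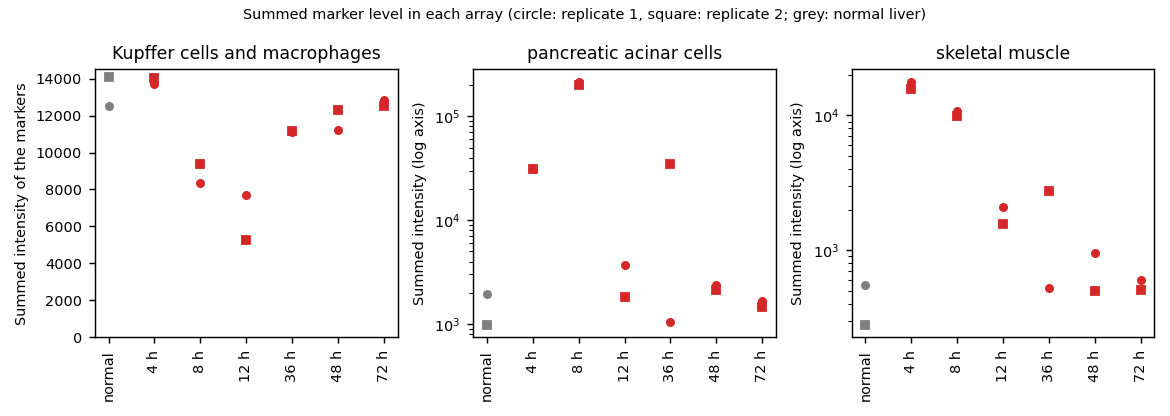
Summed intensity of the marker genes in each array, by group, for Kupffer cells and macrophages (linear axis from 0), pancreatic acinar cells and skeletal muscle (log axes); circles are replicate 1, squares replicate 2, and grey is normal liver. The Kupffer cell sum is lowest at 12 h (7699 and 5268) and the acinar sum highest at 8 h (215930 and 199644).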

How the data were processed

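Intensities of 14 oligonucleotide arrays were used as deposited by the authors, on a linear scale judging by the values; the software and scaling that made them are not given in the sources used here. Of the probe sets, 20380 had a single gene symbol, 691 several and 1555 none, and 64 were controls. Values were transformed to log2(intensity + 57), where 57 is the rounded 25th percentile, and probe sets with a mean intensity under the 40th percentile (128.8) were left out of tests. A fold change on this scale understates the change of dim genes. One limma model (limma 3.58.1, R 4.3.3) with 7 groups was fitted to 13576 probe sets, with an F test over the 6 times, a contrast per time and a late-minus-early contrast, each with Benjamini-Hochberg adjustment at 0.05. The code was tested on simulated data. Where no array of a group was above background, the fold change is a bound, with each such array set to its own background. The rule for named genes was all 36 genes, with values on every array for those that passed, and the genes of the pathway lists that passed; other pathway genes, and per-array values of genes that did not pass, were chosen after their values were seen. The 36 genes and all lists were chosen with earlier results of these data known. Replicate numbers were not used to pair the arrays in the main fit. Replicate differences of 2 groups correlated at -0.19 to 0.53, over 0.1 in 9 of 21 pairs of groups. All 4 arrays of low 5′ control signal were replicate 2. Whether the numbers pair the arrays was not settled. Alternatives were quantile normalization, pseudocounts of 14.25 and 228, other filters, a replicate block, a term for the 4 arrays with low 5′ control signal or their removal, each array left out, and fits on the compared arrays alone. Promoters are from RefSeq, build GRCm38.p6.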

Additional observations from a re-analysis of the deposited data

Results flagged for a closer look

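Of the genes named here and in the pathway lists, 14 differed between the late times (36, 48 and 72 h) and the early times (4, 8 and 12 h) by the limma test of that difference, adjusted over all probe sets. Tested were 27 genes of the set, 16 signalling genes, 26 further interferon-induced genes and 10 further class I genes. Of all probe sets 15.9% passed the same test. Values are log2 changes, late minus early, over 6 arrays each. Among the 36 genes these were Igtp at 0.61, Iigp1 at -0.63 and Bst2 at -0.50. Higher late were also Irgm2 at 0.85, a partner of Irgm1, Pml at 1.02, Parp12 at 0.98 and Helz2 at 0.54 (SE 0.14, adjusted p = 0.0205), a nuclear helicase. Lower late were the feedback gene Socs3 at -2.31 (SE 0.19, adjusted p = 7.29e-06), Stat3 at -0.73 (SE 0.18, adjusted p = 0.017) and Ptpn2 at -1.40 (SE 0.31, adjusted p = 0.00978). The chemokines Cxcl9 and Cxcl10 were lower late, with a fitted value of -1.30 for Cxcl9 (adjusted p = 4.12e-05) and -0.97 for Cxcl10 (SE 0.20, adjusted p = 0.00665). Cxcl9 was above background on 1 of 6 late arrays, so its value gives a direction and no size. Ifitm1, a membrane protein that blocks virus entry, stood at -0.57 (SE 0.16, adjusted p = 0.0261) and H2-K1 at -0.60 (SE 0.16, adjusted p = 0.0259). H2-K1 did not pass with quantile normalization (-0.27, adjusted p = 0.152). With each of the 14 arrays left out in turn, Irgm2 and Ifitm1 passed in 6 fits, H2-K1 in 8, and Helz2 and Stat3 in 10; the lost calls had adjusted p up to 0.102 for Irgm2, 0.083 for Ifitm1, 0.0831 for H2-K1, 0.0652 for Helz2 and 0.0551 for Stat3. Irgm2 was lost without any array of 4 or 36 h, replicate 2 of 8, 12 or 72 h or replicate 1 of 48 h, and Ifitm1 without any array of 4 or 72 h, replicate 2 of 8 or 12 h or replicate 1 of 36 or 48 h. H2-K1 was lost without replicate 2 of 4 or 72 h, replicate 1 of 8 or 48 h or any array of 36 h. Helz2 and Stat3 were lost without replicate 2 of 4 or 8 h or replicate 1 of 36 h, and also without an array of 72 h, replicate 2 for Helz2 and replicate 1 for Stat3. Irgm2 also did not pass with a pseudocount of 14.25 (adjusted p = 0.0542) or no filter (0.06). Without the 4 arrays of low 5′ control signal, Socs3, Ptpn2 and Cxcl9 passed and the other 11 did not, with Irgm2 at 0.37 (adjusted p = 0.442) and Helz2 at 0.43 (adjusted p = 0.249).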

How the results depend on the processing

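The counts of the 27 tested members that passed (6 over the course, then 1, 2, 5, 3, 1 and 0 at 4 to 72 h and 3 late against early) varied with the processing, and where nothing else is said the cause was not tested. With a pseudocount of 14.25, the 8 h count of members was 1. With one of 228, it was 4, with 5 at 36 h, 1 at 72 h and 5 late against early. Quantile normalization gave 2 at 48 h and 1 at 72 h, and the 48 h median over the 13576 probe sets was -0.0008 in place of 0.12. The member medians by time were then -0.16, -0.40, -0.60, -0.48, -0.51 and -0.39. Without a filter 0 passed at 8 h, and with the filter at the 60th percentile, which tests fewer probe sets, the 8 h count was 5, the 12 h count 9, the 36 h count 5 and the 72 h count 1. With the replicate number as a block 5 passed at 8 h and 8 at 12 h, though whether the numbers pair the arrays was not settled. The term for the 4 arrays gave 4 at 8 h, 8 at 12 h and 5 late against early. Without these 4 arrays, which leaves 10, the counts were 3 at 12 h and 0 over the course, late against early and at 8, 36 and 48 h. With only the arrays compared, 4 in all, they were 2 at 12 h and 0 at 8, 36 and 48 h. Leaving out 1 array at a time gave 4 to 8 over the course, 2 to 4 late against early, and by time 0 to 1 (4 h), 0 to 3 (8 h), 4 to 7 (12 h), 0 to 5 (36 h), 0 to 2 (48 h) and 0 to 2 (72 h). Of the 15 calls of single genes, 13 held with quantile normalization, 15 with the block, 3 without the 4 arrays, and 152 of 210 with 1 array left out. The sign changed for Rsad2 at 12 h without replicate 1 of 12 h (1.35; without replicate 2 it was -1.55), and for Samhd1 with other probe sets (-0.12 at 4 h, -0.069 and -1.06 at 12 h). Signal over background limits the dim genes, with array backgrounds of 43.56 to 138.31.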
